A study of Oryza sativa with 8 samples.

Results

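OsSPL14, FZP, LOG, LAX1, RFL and OSH1, 6 genes that shape the rice panicle by forming, keeping or ending its meristems, were followed in plants that overexpress Ghd7. Each gene was represented by every probe set that the array's annotation pairs with that gene alone, which gave 8 probe sets among the 57194 tested and 6 genes among the 17905 with such a probe set. OsSPL14, FZP, LAX1 and RFL had 1 probe set each, and LOG and OSH1 had 2 each, of which the one with the higher mean over all 8 arrays is the main value. Transcripts were measured on a rice Affymetrix array in OX-Ghd7HJ19, transgenic plants that overexpress Ghd7, and in their wild type Hejiang19, a rice cultivar. Developing panicles of 0.1 cm and young leaves of 35-day-old plants in the vegetative stage were taken from both genotypes 3 hours after dawn, from plants grown in the field. The 4 groups were OX-Ghd7HJ19 panicles, Hejiang19 panicles, OX-Ghd7HJ19 leaves and Hejiang19 leaves, with 2 arrays each that the labels call biological replicates. The study set out to find genes downstream of Ghd7. The promoter of the transgene, the number of transgenic lines and the number of plants in a sample are not given in the sources used here. A free-text field repeated on the samples names flag leaves at heading, whereas titles, tissue labels and the collection notes name young leaves and panicles, and the titles were followed.

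A rice panicle is built by a series of meristems. The inflorescence meristem lays down branch meristems, these form axillary and spikelet meristems, and each spikelet meristem ends in a floret. Genes that keep a meristem active or delay the step to the spikelet allow more branches to form, and genes that end branching set spikelet identity. Ghd7 is a CCT-domain regulator known for delaying heading and for raising plant height and grain number per panicle. Among the genes followed here, OsSPL14 is an SBP-box transcription factor, also known as IPA1 and WFP, that promotes panicle branching and limits tillering. RFL is the rice LEAFY homologue and keeps the inflorescence branching. LAX1 is a bHLH factor needed to start axillary meristems. LOG is an enzyme that releases active cytokinin from its nucleotide and is needed to keep shoot meristems active. OSH1 is a KNOX homeobox factor that keeps meristem cells undifferentiated. FZP is an ERF factor that sets spikelet identity and stops further branching from the spikelet meristem.

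Values are log2 expression values per probe set, as deposited. The median of an array was 6.13 to 6.15 in panicles and 4.49 to 4.53 in leaves, so the tissues were on different scales and genotypes were compared within a tissue. Replicate arrays correlated with r of 0.991 to 0.998 over all probe sets. The median SD between replicates was 0.0992 in overexpressor panicles, 0.0664 in wild-type panicles, 0.0994 in overexpressor leaves and 0.117 in wild-type leaves, and the number of arrays limits the precision. Ghd7 itself is not analysed here, so its overexpression was not checked on these arrays. Green tissue markers, taken as a list, separated the tissues as labelled. The mean position of the list within an array was the 53.3rd to 59.6th percentile in overexpressor panicles and the 65.2nd to 65.5th in wild-type panicles. It was the 91.5th to 92.6th in overexpressor leaves and the 96.0th to 96.9th in wild-type leaves. The marker OsPORA went the other way in the overexpressor, with a mean of the 48.1st percentile in panicles and the 42.6th in leaves.

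In panicles, transcripts of OsSPL14, FZP and LOG rose in the overexpressor, by 2.13-fold, 1.99-fold and 1.75-fold over wild type. The rise of LOG was that of its main probe set, and its other probe set did not pass. LAX1, RFL and OSH1 lay higher too, by smaller amounts that did not pass the test. A gene is called changed at an adjusted p under 0.05 by limma, with Benjamini-Hochberg adjustment over all 57194 probe sets. Of the 6 genes, 3 rose and 0 fell. Of all probe sets, 1.05% passed as higher and 1.84% as lower. Among the 15373 probe sets whose wild-type panicle mean was at least that of the lowest of the 6 genes, 0.898% passed as higher. The median change of the 6 genes was 0.65, and that of all probe sets was 0.016.

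OsSPL14 had the largest change of the 6 genes (NCBI gene 4345998). Its log2 values were 13.23 and 13.28 in overexpressor panicles, against 12.21 and 12.13 in wild-type panicles, so both overexpressor arrays lay about a full log2 unit above both wild-type arrays. The group means were 13.26 ± 0.035 in overexpressor panicles and 12.17 ± 0.055 in wild-type panicles (SD, n = 2 each). The change was 1.09 with a standard error of 0.12 and a 95% interval of 0.81 to 1.37, or 2.13-fold (1.76 to 2.58), with an adjusted p of 0.00202 by limma. Only 0.320% of all probe sets had a larger upward change in panicles. It passed in each of the 8 fits that left out an array, with adjusted p of 0.00382 to 0.0368.

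FZP, the spikelet identity factor that ends branching, rose by nearly as much (NCBI gene 4344233). Its log2 values were 10.38 and 9.83 in overexpressor panicles, against 9.08 and 9.14 in wild-type panicles. The overexpressor arrays differed more from each other than those of any other of the 6 genes, and both lay above wild type. The means were 10.10 ± 0.39 in overexpressor panicles and 9.11 ± 0.046 in wild-type panicles (SD, n = 2 each). The change was 0.99 with a standard error of 0.18, or 1.99-fold (95% interval 1.50 to 2.63), with an adjusted p of 0.0212 by limma. Without overexpressor panicle replicate 1 the change was 0.72 and the adjusted p was 0.0652, and the call was also lost without either wild-type panicle array (0.156 and 0.143) or either overexpressor leaf array (0.0507 each).

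LOG, the cytokinin-activating enzyme, rose with close agreement between replicates (NCBI gene 4324445). Its log2 values were 9.72 and 9.76 in overexpressor panicles, against 8.91 and 8.96 in wild-type panicles. The change was 0.81 with a standard error of 0.12, or 1.75-fold (95% interval 1.46 to 2.10), with an adjusted p of 0.00732 by limma. The gap between genotypes was many times the gap between replicates. With 1 array fewer the adjusted p was 0.0548 without overexpressor panicle replicate 2, 0.0852 without wild-type panicle replicate 1 and 0.0766 without wild-type panicle replicate 2. The other LOG probe set was dim, at 4.29 and 4.02 in overexpressor panicles and 3.99 and 4.12 in wild-type panicles, between the 11.4th and 18.4th percentile of its arrays. It differed by 0.10 ± 0.14 (SE) between genotypes, with an adjusted p of 0.819 by limma, and its genotypes overlapped, so the rise rests on 1 of the 2 LOG probe sets.

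**Figure D1:**
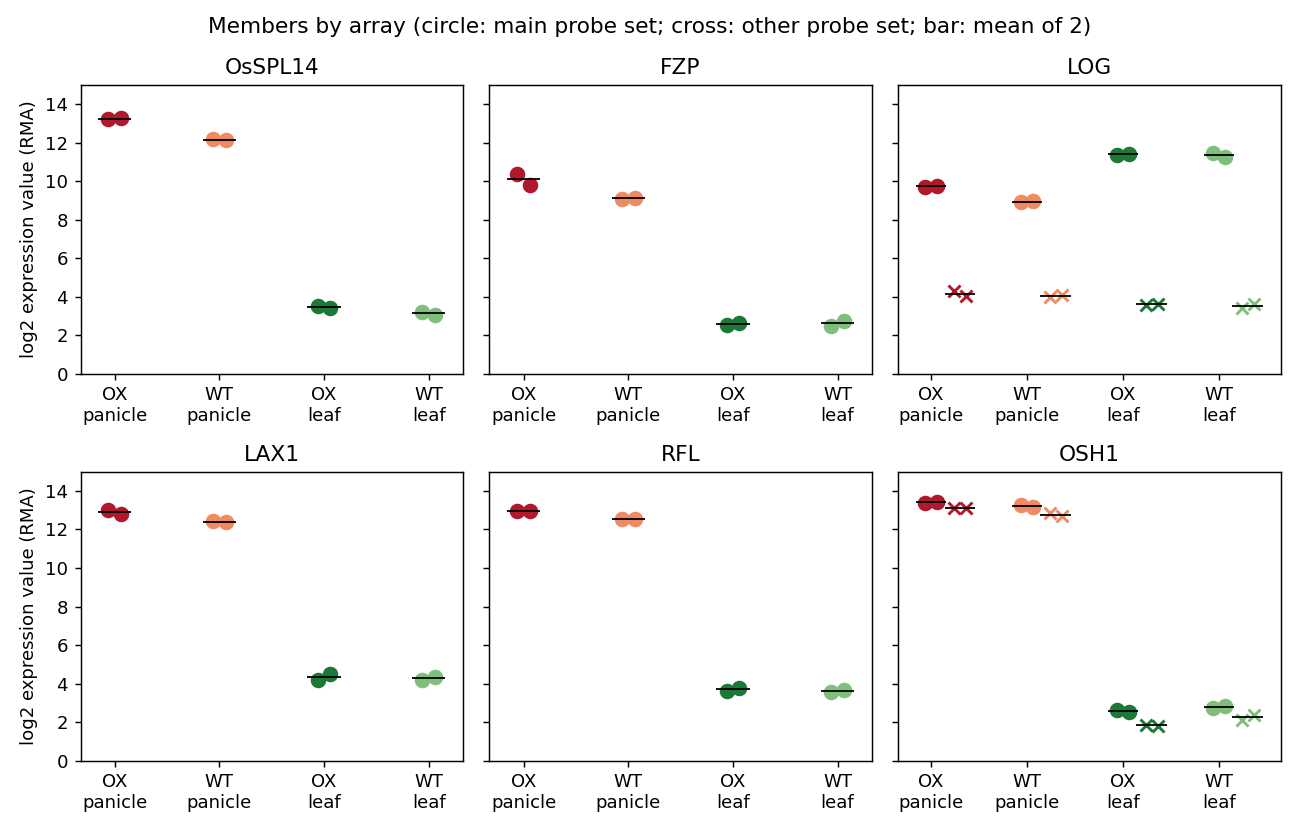
Deposited log2 values of OsSPL14, FZP, LOG, LAX1, RFL and OSH1 on each of the 8 arrays, with 1 panel per gene, circles for the main probe set, crosses for the other probe set of LOG and OSH1, and bars for the mean of 2 arrays. In panicles both overexpressor (OX) circles lie above both wild-type (WT) circles for all 6 genes. In leaves the main LOG probe set lies above 11 and those of the other 5 genes below 5, and the leaf and panicle arrays are on different scales.

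LAX1, the axillary meristem factor, had log2 values of 13.02 and 12.79 in overexpressor panicles, against 12.43 and 12.39 in wild-type panicles (NCBI gene 4327431). The genotypes did not overlap, but the change of 0.50 (95% interval 0.17 to 0.82) had an adjusted p of 0.126 by limma. RFL, the LEAFY homologue, had the tightest replicates, at 12.95 and 12.95 in overexpressor panicles, against 12.53 and 12.55 in wild-type panicles (NCBI gene 4336857). Its change of 0.41 (0.15 to 0.66) had an adjusted p of 0.110, and it passed where all 8 arrays were quantile normalized together, with a change of 0.57 and an adjusted p of 0.0407. OSH1, the KNOX factor, had log2 values of 13.38 and 13.44 in overexpressor panicles, against 13.25 and 13.15 in wild-type panicles (NCBI gene 4333973). Its change of 0.22 (−0.04 to 0.47) had an adjusted p of 0.426. Its probe set name ends in _x_at, which Affymetrix uses for probe sets that can share probes with other transcripts, so this value may include a related gene. The other OSH1 probe set has no such ending and read 13.11 and 13.11 in overexpressor panicles, against 12.85 and 12.71 in wild-type panicles. Its change was 0.33 (0.05 to 0.62), with an adjusted p of 0.245 by limma.

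**Figure D2:**
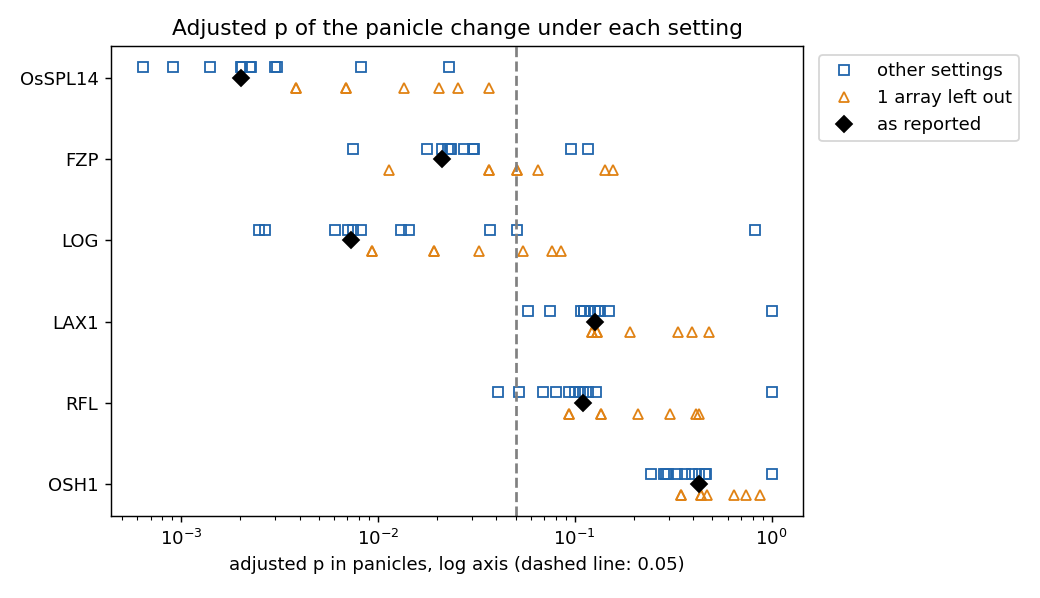
Adjusted p (limma, log axis) of the panicle change of each gene as reported (black diamonds), with 1 array left out (orange triangles) and under the other settings (blue squares), with a dashed line at 0.05. OsSPL14 stays below 0.05 throughout, whereas FZP and LOG cross it under some settings and RFL goes below it under a single one. The square of LOG at 0.819 is its dim probe set.

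In panicles 6 of 6 genes had both overexpressor arrays above both wild-type arrays, as did 27.3% of all probe sets. Without adjustment 5 of 6 had a p under 0.05 by limma. The share of all probe sets with such a p was not determined, here or for the unadjusted counts below. In order of size, larger upward changes were found in 0.320% of all probe sets for OsSPL14, 0.421% for FZP, 0.738% for LOG, 2.66% for LAX1, 4.57% for RFL and 16.8% for OSH1. Array signals can flatten near the top of the range, and OSH1, RFL, LAX1 and OsSPL14 lay between the 95.8th and 99.2nd percentile of the panicle arrays. Whether that lowered their changes was not tested.

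**Figure D3:**
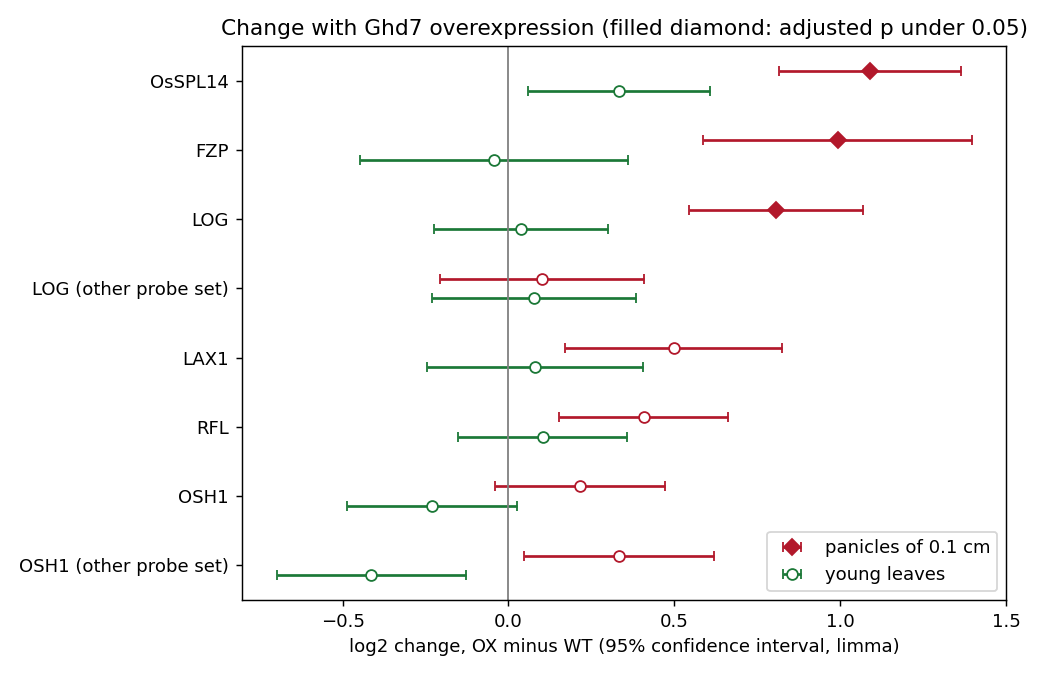
Change between overexpressor and wild type (OX minus WT, log2) of each of the 8 probe sets in panicles and in leaves, with 95% intervals from limma (n = 2 arrays per group) and filled diamonds for an adjusted p under 0.05. The panicle intervals of the main probe sets of OsSPL14, FZP, LOG, LAX1 and RFL lie above 0, and those of OsSPL14, FZP and LOG are the filled ones. In leaves the interval of OsSPL14 lies above 0 and that of the other OSH1 probe set below 0, neither passing adjustment, and the others include 0.

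Panicles of both genotypes were taken at one length, and fewer cells of a type and less RNA per cell cannot be told apart in whole panicles. Floral organ identity genes, which act after the spikelet meristem has formed, moved the other way. Of 13 measured, 0 rose and 9 fell in overexpressor panicles, with a median change of −1.49. Of all probe sets, 1.05% passed as higher and 1.84% as lower there. The mean log2 value over the 13 genes was 9.43 and 9.43 in overexpressor panicles, against 10.95 and 10.89 in wild-type panicles. OsMADS58, a carpel and floral meristem gene, fell by 3.50, OsMADS7 and OsMADS8, which are SEPALLATA-like, fell by 3.22 and 1.98, and OsMADS16 and OsMADS4, of petal-like organs and stamens, fell by 1.99 and 1.91. DL, needed for carpels, fell by 1.49. These 6 falls passed under each alternative tried. Green tissue markers also lay lower, with 0 of 8 up and 4 down and a median of −0.84. Their mean log2 value was 7.27 and 6.70 in overexpressor panicles, against 7.87 and 7.91 in wild-type panicles. The falls were OsrbcS, the small subunit of Rubisco, by 1.34, the chlorophyll-binding protein genes RCABP69 and RCABP89 by 1.79 and 0.94, and GOS5 by 0.73, and each lost its call without at least 1 array. The fall of OsrbcS is that of its main probe set, whose name ends in _x_at. Its other probe sets changed by −0.64, 0.03 and 0.23, with adjusted p of 0.0380, 0.969 and 0.421 by limma. Of these, the ones at −0.64 and 0.23 had panicle means below the array median. The part that a different stage or tissue makeup of the panicles plays in the rises of OsSPL14, FZP and LOG was not tested.

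In leaves none of the 6 genes passed the test. The background was 1.37% of all probe sets passing as higher and 3.05% as lower in leaves. Without adjustment, to which these shares do not apply, 1 of the 6 genes had a p under 0.05 by limma. That gene was OsSPL14, with log2 values of 3.53 and 3.40 in overexpressor leaves, against 3.24 and 3.03 in wild-type leaves. Its leaf change was 0.33 ± 0.12 (SE; 95% interval 0.06 to 0.61), with an adjusted p of 0.200 by limma. Both overexpressor arrays lay above both wild-type arrays, but all 4 were below the median of their arrays, where a value may be background. OsSPL14 was the 1 gene of 6 whose leaf groups were separated upwards, as were those of 25.2% of all probe sets.

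OSH1 was the 1 gene of 6 whose leaf groups were separated downwards, as were those of 18.3% of all probe sets. Its main probe set read 2.62 and 2.51 in overexpressor leaves, against 2.75 and 2.84 in wild-type leaves, a difference of −0.23 with an adjusted p of 0.354 by limma. The other OSH1 probe set read 1.85 and 1.82 in overexpressor leaves, against 2.12 and 2.38 in wild-type leaves, with a difference of −0.41 and an adjusted p of 0.124. These values lie at or below the 17.4th percentile of their arrays.

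LOG was the exception among the 6 genes in leaves, since its main probe set read high there. That probe set read 11.36 and 11.43 in overexpressor leaves, against 11.45 and 11.27 in wild-type leaves, and the genotypes overlapped. Its leaf change was 0.04 (95% interval −0.22 to 0.30), with an adjusted p of 0.927 by limma, which leaves room for a change of up to about 0.30. The other LOG probe set read 3.59 and 3.65 in overexpressor leaves, against 3.44 and 3.64 in wild-type leaves, below the array medians. Which of the 2 probe sets reports the gene was not tested. FZP, LAX1 and RFL differed by −0.04, 0.08 and 0.10 between the genotypes in leaves, with adjusted p of 0.949, 0.856 and 0.724 by limma. FZP read 2.51 and 2.63 in overexpressor leaves, against 2.51 and 2.73 in wild-type leaves. LAX1 and RFL read 3.63 to 4.49 in overexpressor leaves and 3.54 to 4.35 in wild-type leaves, below the array medians as well.

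The genotype effect in panicles minus that in leaves was tested as an interaction, in which 2.10% of all probe sets passed as higher. Of the 6 genes, 2 passed as higher. Without adjustment, to which that share does not apply, 4 had a p under 0.05 by limma. For LOG the panicle effect exceeded the leaf effect by 0.77 ± 0.16 (SE), with an adjusted p of 0.0368 by limma. For OsSPL14 the difference was 0.76 ± 0.17 (SE), with an adjusted p of 0.0476. FZP differed by 1.04 ± 0.25 (SE) and missed the threshold with an adjusted p of 0.0605. With all 8 arrays quantile normalized together, OsSPL14 differed by 1.21, FZP by 1.03 and LOG by 0.69, with adjusted p of 0.0103, 0.0620 and 0.0526, so the value of OsSPL14 and its order relative to FZP depended on the scaling. LAX1, RFL and OSH1 differed by 0.42, 0.30 and 0.45, with adjusted p of 0.344, 0.384 and 0.189. The difference for the main LOG probe set compares values well above background in both tissues. For OsSPL14 and FZP the leaf values may be background. The dim LOG probe set differed by 0.02 ± 0.19 (SE), with an adjusted p of 0.970 by limma, from values below the array medians. Without 1 array, neither OsSPL14 nor LOG passed, except without wild-type leaf replicate 2, where both did. FZP passed without overexpressor panicle replicate 2, with an adjusted p of 0.0237.

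Between tissues, 5 of the 6 genes were higher in panicles and LOG was lower. The background was 35.5% of all probe sets passing as higher and 41.2% as lower in overexpressor panicles against leaves, and 36.0% and 41.0% in wild-type panicles against leaves. The position within an array shows the same split without a common scale. OsSPL14 lay at the 98.9th and 99.0th percentile of overexpressor panicle arrays, against the 31.1st and 28.2nd of overexpressor leaf arrays. In wild type it lay at the 96.1st and 95.8th percentile in panicles, against the 26.1st and 21.4th in leaves. LAX1, RFL and OSH1 lay at or above the 96.8th percentile in all 4 panicle arrays and below the 50th in all 4 leaf arrays. FZP was lower in panicles than these, at the 84.0th and 80.0th percentile in the overexpressor and the 74.1st and 74.6th in wild type, and lay at the 10.5th to 15.1st percentile in leaves.

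LOG ran the other way. It lay at the 78.8th and 79.5th percentile in overexpressor panicles, against the 98.5th and 98.6th in overexpressor leaves. In wild type it lay at the 73.0th and 73.3rd percentile in panicles, against the 98.6th and 98.4th in leaves. After a common quantile normalization of all 8 arrays, LOG was lower in panicles than in leaves by a log2 change of −3.94 in the overexpressor and −4.63 in wild type. These are 15.3-fold and 24.8-fold lower. On the deposited scale, where panicle arrays have the higher medians, the changes were −1.66 and −2.43, so the direction held and the size depended on the scaling. That holds for the main LOG probe set only. The dim one changed by −0.87 in the overexpressor and −0.92 in wild type after common normalization, but on the deposited scale its direction turned, with means of 4.15 in overexpressor panicles against 3.62 in overexpressor leaves, and 4.05 in wild-type panicles against 3.54 in wild-type leaves. All its group means lay below the array medians.

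After that normalization OSH1 was higher in panicles than in leaves by a log2 change of 9.50 in the overexpressor and 8.94 in wild type. OsSPL14 was higher by 8.40 and 7.19, RFL by 7.73 and 7.22, LAX1 by 6.94 and 6.31 and FZP by 5.37 and 4.34. The direction held on the deposited scale and with array medians set equal, but the sizes did not. On the deposited scale the changes in the overexpressor and in wild type were 10.85 and 10.40 for OSH1, 9.79 and 9.03 for OsSPL14, 9.26 and 8.95 for RFL, 8.56 and 8.14 for LAX1 and 7.53 and 6.49 for FZP. With medians set equal, those of OSH1 were 9.23 and 8.77, and those of OsSPL14 were 8.17 and 7.40. Each leaf mean of these 5 genes was below the array median and may be background, so no fold is given. The median panicle-minus-leaf difference of all probe sets in wild type was 1.58 as deposited and −0.09 after common normalization. By group mean, the order was overexpressor panicles, wild-type panicles and then leaves for the 5 genes. For the main probe set of LOG it was leaves, overexpressor panicles and wild-type panicles. The panicle genotypes were told apart by the test for OsSPL14, FZP and LOG, but not for LAX1, RFL and OSH1. The leaf genotypes were not told apart by the test for any of the 6 genes.

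**Figure D4:**
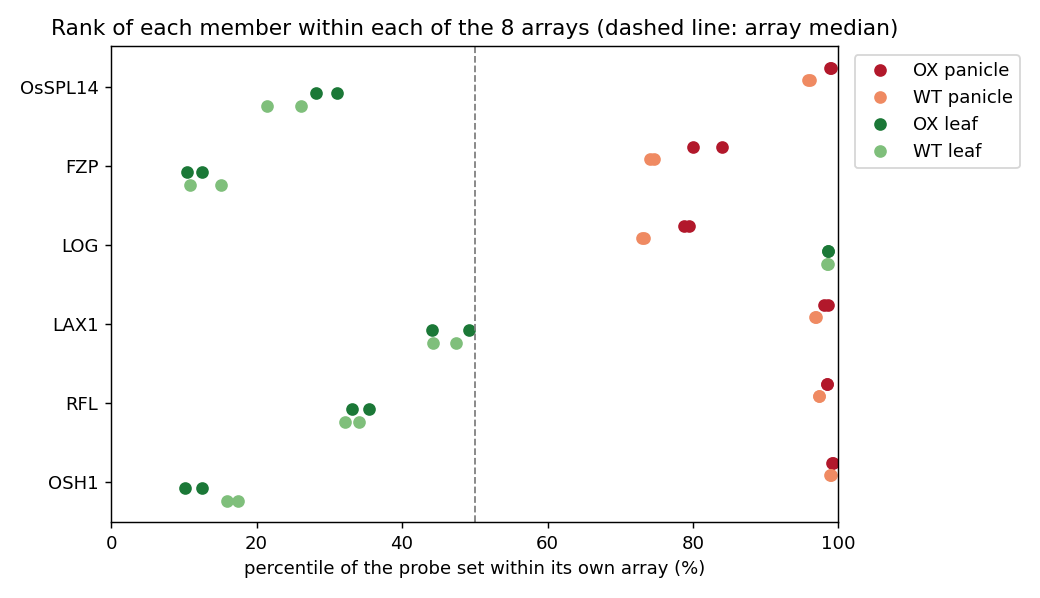
Position of each main probe set within its own array, as a percentile of all 57194 probe sets, with 1 point per array. OsSPL14, LAX1, RFL and OSH1 lie at the top of the panicle arrays and below the middle of the leaf arrays, FZP lies between the 74.1st and 84.0th percentile in panicles, and LOG lies at the top of the leaf arrays.

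The other genes of the same pathways were mostly without a call, as were most probe sets. The background over all probe sets was 1.05% passing as higher and 1.84% as lower in panicles. In leaves it was 1.37% and 3.05%. These shares are also the background for the strigolactone, SPL, KNOX and LOG family lists below. Of 36 further panicle branching and meristem genes listed, 9 were measured. In panicles 1 rose, 0 fell and the median change was 0.06. The rise was FON1, the CLAVATA1-like receptor kinase that limits floral meristem size, by 0.63 ± 0.11 (SE), with an adjusted p of 0.0164 by limma. Its call was lost without any 1 of the 4 panicle arrays, with adjusted p of up to 0.175. The other 8 ranged from −0.36 for OsMADS22 to 1.75 for OsMADS55. In leaves 1 of the 9 rose and 1 fell. OsMADS47 rose by 0.59 with an adjusted p of 0.0496, which no fit without an array kept. OsMADS34, a SEPALLATA-like gene of the inflorescence, fell by 1.25 in leaves with an adjusted p of 0.0108, from values below the array median, and lost the call without either overexpressor leaf array.

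Of 9 strigolactone and tillering genes listed, 5 were measured, and in panicles 1 rose and 0 fell, with a median of −0.13. The rise was D14, the strigolactone receptor, at a mean log2 value of 11.71 ± 0.17 in overexpressor panicles and 10.82 ± 0.014 in wild-type panicles (SD, n = 2 each). Its change of 0.89 ± 0.13 (SE), or 1.86-fold, had an adjusted p of 0.00786 by limma. The call was lost without overexpressor panicle replicate 2 or either wild-type panicle array, with adjusted p of up to 0.0849. Like the main probe set of LOG, D14 read high in leaves, at the 98.2nd percentile in both genotypes, and differed by 0.02 between them there. Its panicle effect exceeded its leaf effect by 0.88, with an adjusted p of 0.0344. In leaves 0 of the 5 genes passed and 3 had an unadjusted p under 0.05.

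Of 18 other SPL genes listed, the family of OsSPL14, 9 were measured. In panicles 1 rose, 0 fell and the median was −0.06, and 7 of the 9 changes were below 0. OsSPL8 rose by 0.61, with an adjusted p of 0.0390 by limma, and lost the call in 6 of the 8 fits without an array. In leaves OsSPL12 rose by 0.77 and OsSPL2 fell by 0.82, with adjusted p of 0.0149 and 0.0205 by limma. Both lost the call without either overexpressor leaf array, in the 4-array fit and against a 1.2-fold change. OsSPL2 also lost it without either wild-type panicle array. None of the 9 came near the panicle change of 1.09 of OsSPL14, as the largest was 0.61.

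Of 7 KNOX genes listed beside OSH1, 6 were measured, and 0 passed in panicles by limma, where 2 had an unadjusted p under 0.05. They were OSH43 at −0.79, with an adjusted p of 0.124, and OSH45 at 0.28, and the median was −0.08. In leaves 0 of the 6 passed, with 1 at an unadjusted p under 0.05. Of 10 genes of the LOG family listed, 7 were measured. By limma 0 passed in panicles, 2 had an unadjusted p under 0.05 and the median was −0.04, with changes from −0.65 for LOGL6 to 0.38. In leaves LOGL9 fell by 0.95, with an adjusted p of 0.0233, and lost the call without any of 5 arrays. None of these 7 relatives of LOG had a call in panicles.

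**Figure D5:**
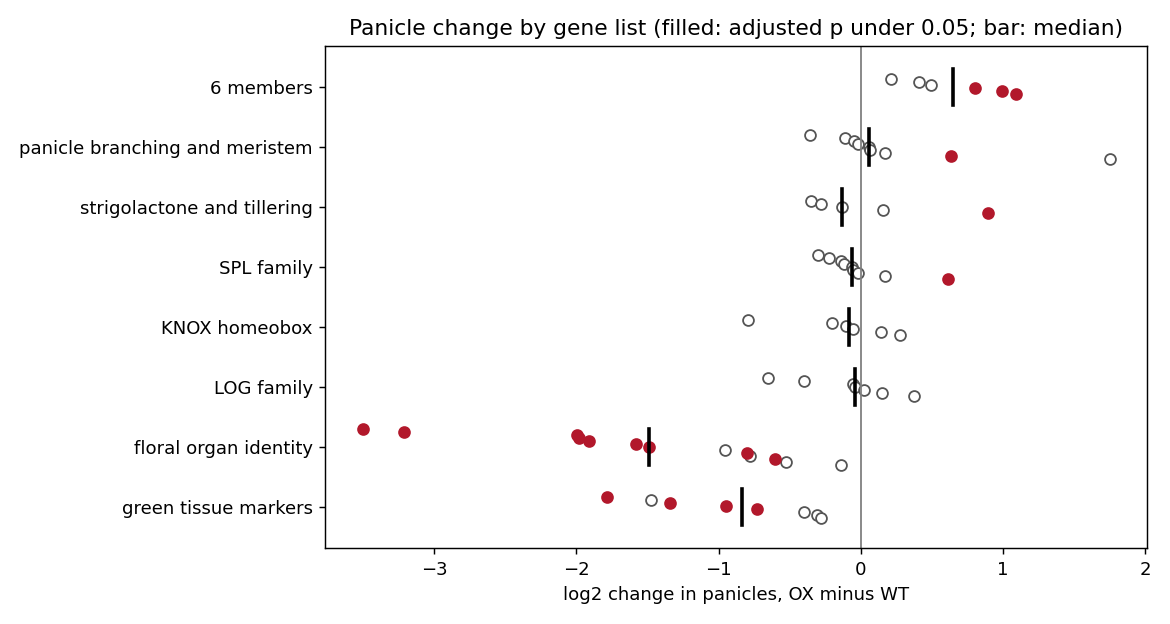
Panicle change between overexpressor and wild type (log2) of the measured genes of each list, with 1 point per gene, filled points for an adjusted p under 0.05 by limma and bars for the median. The 6 genes followed here lie between 0.22 and 1.09, the floral organ identity genes lie between −3.50 and −0.14, and the other meristem lists spread around 0.

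In leaves of the overexpressor, the floral organ identity list had 1 fall among 13 genes and 0 rises. The green tissue list had 2 falls among 8 and 0 rises. Of all probe sets, 1.37% passed as higher and 3.05% as lower in leaves. The floral gene was OsMADS1, a SEPALLATA-like gene of lemma and palea, named here after its values were seen. It averaged 3.78 ± 0.52 in overexpressor leaves and 10.04 ± 0.58 in wild-type leaves (SD, n = 2 each), with an adjusted p of 1.5e-05 by limma. OsPORA and OsPORB, which reduce protochlorophyllide in chlorophyll synthesis, fell by 2.11 and 1.90 in leaves.

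Genes with a pattern most like each of the 6 were sought among 2418 named genes, by the root mean square difference of log2 values over the 8 arrays after centring each gene on its own mean. A large part of this measure is the difference between tissues, including the scale difference between their arrays. OsSPL14 was nearest to EM, at 0.347, which rose by 1.45 in panicles, and next to EXP7, at 0.379, which differed by 0.13 there. FZP was nearest to the sugar transporter gene OsSWEET15, at 0.193, and to the phosphatase gene OsPP2C08, at 0.201, which rose by 1.32 and 0.999 in panicles. LOG was nearest to cpdk, at 0.176, which rose by 0.61 in panicles, and to MDAR2, at 0.225. LAX1 was nearest to CSLA1 and NEK1, at 0.168 and 0.201, RFL to GRF10 and EXP7, at 0.154 and 0.180, and OSH1 to GLU8 and BCL1, at 0.151 and 0.220. Among the 6 genes, OsSPL14 and RFL were the closest pair, at 0.315, and LOG was 4.53 to 6.34 from each of the others.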

How the data were processed

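The authors deposited log2 expression values. Per the submitters' processing notes RMA made them, with no version stated there. Of 57381 probe sets, 123 AFFX controls and 64 reporter probe sets were left out, and 57194 were tested. A single gene was annotated for 22436, several genes for 95 and none for 34663, and symbols were updated through a RefSeq gene table. Of 111 list entries, 63 were measured, and 6 whose symbol led to another gene were left out. One mean per group was fitted to 8 arrays with limma 3.58.1 in R 4.3.3, leaving 4 residual degrees of freedom, and p-values were two-sided. The script was tested on simulated data. Tissues were compared after quantile normalization of all 8 arrays together. Figures used Python 3.11.15, pandas 2.3.3 and matplotlib 3.10.9. A single-gene exact permutation test of 2 against 2 arrays cannot go below 0.333.

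The genes, lists and tests were chosen with earlier results of these data known. Of each list, genes that passed in panicles or leaves were named, up to 6 by smallest p in panicles, together with the 2 nearest named genes of each of the 6 genes, and OsMADS22, OsMADS55, OSH43, OSH45, LOGL6 and OsMADS1 were added after their values were seen. Alternatives were other normalizations, removal of dim probe sets, a fit on 4 arrays, an intensity trend, array weights, a replicate block, 1 probe set for each gene, testing against a 1.2-fold change, the other probe sets of LOG and OSH1, and leaving out each array.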

Additional observations from a re-analysis of the deposited data

Results flagged for a closer look

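OsSPL14 was marked because its genotype effect differed between tissues by the interaction test. The effect was 1.09 in panicles and 0.33 in leaves, a difference of 0.76, with an adjusted p of 0.0476 by limma. LOG was marked in the same way by its main probe set. Its effect was 0.81 in panicles and 0.04 in leaves, a difference of 0.77, with an adjusted p of 0.0368 by limma. Both calls were lost in 7 of the 8 fits without an array. With 2 arrays a group, no outlier test of an array was run.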

How the results depend on the processing

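Of the 6 genes, 3 passed in panicles. Leaving out each array in turn gave 1 to 3, with 1 (OsSPL14) without either wild-type panicle array, and the test against a 1.2-fold change gave 1. Common quantile normalization gave 4 (RFL added), and the 4-array fit and the lowest-mean probe sets gave 2 each. In leaves 0 passed by limma under each alternative. For the difference between the tissues' genotype effects, 2 passed, against 3 with 1 probe set per gene (FZP added, adjusted p 0.0474), 1 with common quantile normalization, 1 with the lowest-mean probe set of LOG and OSH1, 0 in the test against a 1.2-fold change and 0 to 2 without an array. Between tissues 6 passed under each alternative. The labels do not say whether samples with the same replicate number belong together. Deviations of same-numbered arrays correlated at 0.00663 to 0.0651 between groups, which cannot settle it. With replicate number as a block, 3 passed in panicles and 0 for the difference between tissues, where OsSPL14 and LOG had adjusted p of 0.0530 and 0.0529.

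Leaf changes near 0 reversed. FZP (−0.04) was 0.015 without overexpressor leaf replicate 1 and 0.065 without wild-type leaf replicate 2, in a range of −0.15 to 0.065 without an array. LAX1 (0.08) was −0.067 without overexpressor leaf replicate 2 and −0.011 without wild-type leaf replicate 1, in a range of −0.067 to 0.23. LOG (0.04) was −0.051 without wild-type leaf replicate 2, in a range of −0.051 to 0.13. FZP also lost its panicle call in a fit on the 4 panicle arrays (adjusted p 0.117) and against a 1.2-fold change (0.0959), and LOG against a 1.2-fold change (0.0508). The cause was not tested. Over all probe sets, 1652 passed in panicles, against 692 in the 4-array fit, 2807 with array weights, 726 with 1 probe set per gene, 644 against a 1.2-fold change and 420 to 1645 without an array. In leaves 2529 passed, against 325, 1010 and 1051 to 3292 in the 4-array fit, against a 1.2-fold change and without an array. For the difference between tissues 2195 passed, against 1051 in the 1.2-fold test and 630 to 2670 without an array. Without an array, the panicle change ranged from 1.05 to 1.13 for OsSPL14, from 0.72 to 1.27 for FZP and from 0.78 to 0.83 for LOG. The difference between the tissues' genotype effects ranged from 0.65 to 0.86 for OsSPL14 and from 0.68 to 0.86 for LOG. Directions were thus kept for these panicle changes and these differences, while calls were lost as given above.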

Other observations

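OsMADS55, a MADS-box gene of the StMADS11 group, had the largest panicle change in the list of branching and meristem genes and was picked out after its values were seen. Its log2 values were 10.08 and 9.92 in overexpressor panicles, against 8.37 and 8.13 in wild-type panicles, a change of 1.75 with an adjusted p of 0.108 by limma. In leaves it read 7.09 and 8.93 in the overexpressor, against 6.20 and 6.88 in wild type, and the overexpressor leaf arrays stood far apart. The spread in the fit is shared by all 4 groups. In a fit on the 4 panicle arrays alone, an alternative chosen after seeing the data, the adjusted p was 0.0211.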
